A study of Mus musculus with 21 samples.

Results

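Beta thymosins and the proteins that act on actin beside them were followed through cortex and hippocampus in GA-Camk2a mice and in controls. The 10 genes are the beta thymosins Tmsb4x and Tmsb10, the cytoplasmic actin gene Actb, and Pfn1, Cfl1, Arpc1b, Capg, Coro1a, Lcp1 and Cotl1. They were taken by gene symbol out of 64361 gene rows. They were chosen by their measured levels in these libraries, as CPM, which is a count scaled to a library total of 1000000, so their levels and fold changes are a description and carry no p-value. All 10 passed the filter on low counts in every comparison.

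GA-Camk2a mice make poly-GA, a dipeptide repeat protein of C9orf72 ALS, from a floxed transgene that a Camk2a-Cre driver switches on in excitatory neurons. The mice were on a C57BL/6J background, and cortex and hippocampus were taken at the age of 30 to 40 weeks, when the transgenic mice had reached the humane endpoint. Control mice are labelled only as ctrl, so the alleles that they carried are not given in the labels, nor is the sex of the mice. Prime-seq, which sequences tagged 3′ ends of transcripts from bulk RNA, gave 5 control and 6 GA-Camk2a cortex libraries and 4 control and 6 GA-Camk2a hippocampus libraries. Each library in a group came from a separate mouse, and 10 of the 11 mice gave both tissues.

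Actin monomers polymerize into filaments that shape dendritic spines, growth cones and the moving processes of microglia. Beta thymosins hold monomers in reserve, profilin delivers them to growing ends, and cofilin severs old filaments and returns their monomers to the pool. The Arp2/3 complex starts branches on existing filaments, capping proteins block filament ends, coronins act on branched networks, and plastins bundle filaments.

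Library totals ranged from 1048201 to 5888102 counts, with a median of 1975173. The summed level of 5 hippocampus marker genes was 563 to 775 CPM in the hippocampus libraries and 91.7 to 154 CPM in the cortex libraries. The 4 cortex markers did not separate the tissues, at 223 to 690 CPM in cortex and 165 to 5370 CPM in hippocampus. Choroid plexus markers ranged from 2020 to 57900 CPM in the hippocampus libraries. The hippocampus library of GA-Camk2a mouse 41 held 829 CPM of neutrophil markers against 9.93 to 16.4 CPM in the other 5 libraries of its group.

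In cortex, Capg, Lcp1, Arpc1b, Cotl1 and Tmsb4x were higher in GA-Camk2a mice by log2 differences of 0.43 to 1.86, and none of the 10 genes was past the threshold in the other direction. In hippocampus Capg, Lcp1 and Arpc1b were again higher, while Coro1a and Cfl1 were lower. A gene was counted as past the threshold at an adjusted p under 0.05 over all genes tested with edgeR. By this rule 5 of the 10 genes were past it in cortex, all higher, where 12.5% of all genes were past it, 6.35% higher and 6.16% lower. In hippocampus 3 were higher and 2 lower, where 10.9% of all genes were past it, 4.97% higher and 5.95% lower. Since the choice of the genes used these contrasts, nothing is read from these shares. The median log2 difference of the 10 genes was 0.34 in cortex and 0.03 in hippocampus, beside -0.0049 and 0.0162 over all genes tested.

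**Figure D1:**
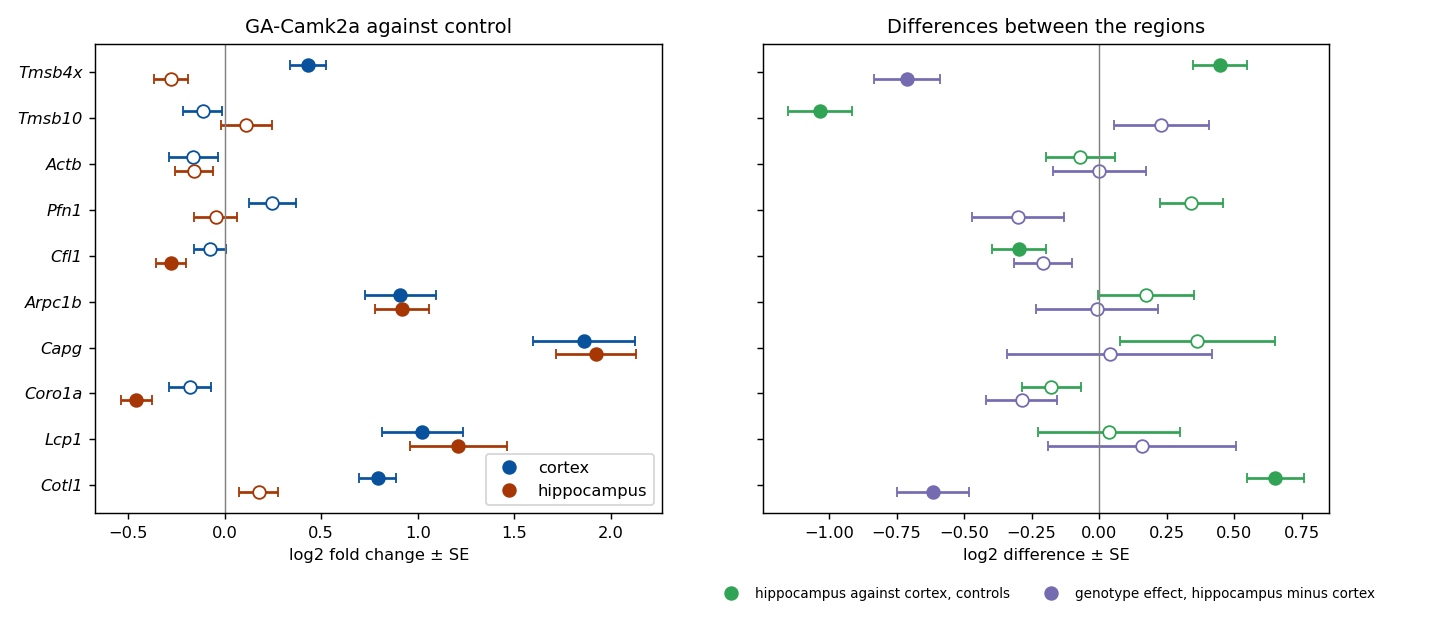
Log2 difference between GA-Camk2a and control mice of the 10 genes in cortex and hippocampus, on the horizontal axis, with bars of 1 standard error derived from the edgeR F-tests. Filled points were past the threshold of the fit over all genes and open points were not. Capg, Lcp1 and Arpc1b lie to the right of 0 in both tissues, and Tmsb4x lies on opposite sides of 0.

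Capg, Lcp1 and Arpc1b were higher in both tissues and followed each other from library to library. Over the 21 libraries, Pearson's r of log2 CPM was 0.855 between Arpc1b and Lcp1, 0.845 between Arpc1b and Capg, and 0.803 between Capg and Lcp1. These correlations are descriptions, and the points share genotype, tissue and batch. The difference between the genotypes enters each r, and r within a group was not computed. Because these genes were higher in both tissues, the stretch upstream of a RefSeq start of each is given here. That of Tmsb4x, whose difference changed sign between the tissues, is given with them. Capitals mark GGGCGG on either strand (CCGCCC when read on the other strand), the core of a GC box. The sequences are those of RefSeq on GRCm38.p6, a different build from the GRCm39 of the counts, and leave out annotated exons. The Capg stretch lies inside that gene as GENCODE places it, chr6:72544391-72562983, and so precedes a start within the gene. The Arpc1b stretch is chr5:145114006-145114214 on the plus strand, the Lcp1 stretch is chr14:75130873-75131100 on the plus strand, the Capg stretch is chr6:72549502-72549646 on the plus strand, and the Tmsb4x stretch is chrX:167209316-167209468 on the minus strand.
Arpc1b: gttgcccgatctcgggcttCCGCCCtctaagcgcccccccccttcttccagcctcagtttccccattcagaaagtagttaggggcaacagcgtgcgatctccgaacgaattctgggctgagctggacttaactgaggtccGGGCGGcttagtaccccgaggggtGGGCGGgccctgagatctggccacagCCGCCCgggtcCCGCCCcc
Lcp1: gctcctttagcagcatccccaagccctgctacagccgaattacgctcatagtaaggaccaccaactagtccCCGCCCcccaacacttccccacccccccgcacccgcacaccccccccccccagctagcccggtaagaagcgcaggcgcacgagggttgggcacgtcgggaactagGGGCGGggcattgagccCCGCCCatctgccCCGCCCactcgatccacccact
Capg: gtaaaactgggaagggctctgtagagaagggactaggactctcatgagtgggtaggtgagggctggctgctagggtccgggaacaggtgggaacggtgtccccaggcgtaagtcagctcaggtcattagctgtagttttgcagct
Tmsb4x: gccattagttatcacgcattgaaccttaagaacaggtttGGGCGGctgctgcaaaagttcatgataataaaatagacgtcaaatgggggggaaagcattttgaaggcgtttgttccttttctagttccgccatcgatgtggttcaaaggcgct

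GGGCGG occurred 5 times in the Arpc1b stretch, 4 times in the Lcp1 stretch, once in that of Tmsb4x and 0 times in that of Capg. Arpc1b, Lcp1 and Capg therefore did not all hold it in these stretches. In the full 250 bases before the chosen start, 6 of the 8 genes with a promoter window held GGGCGG, as did 32.7% of 32851 windows of that length. Of each gene, only the window of the RefSeq start nearest its annotated beginning was searched. Tmsb10, Coro1a and Lcp1 had 3, 2 and 2 windows to choose from. The windows of Capg and Coro1a lie inside the genes as GENCODE places them. AGGAAGT, a form of the site of the myeloid factor PU.1, occurred in 0 of the 8 windows and in 7.69% of all windows. TATAAA occurred in 0 of 8 and in 12.4% of all, and the CArG box of serum response factor in 0 of 8 and in 1.47% of all. Both strands were searched, and no match says only that these letters are not in the window. Actb and Cotl1 had no window.

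Among the monomer binders, Tmsb4x, which encodes thymosin beta 4 and lies on the X chromosome, was higher in GA-Camk2a cortex and not in hippocampus. Control cortex held 1166, 1402, 1179, 1336 and 1314 CPM in mice 11, 20, 31, 37 and 38. GA-Camk2a cortex ranged from 1431 to 1960 CPM with a median of 1694. The groups did not overlap, as in 6.17% of all genes tested in cortex, and the GA-Camk2a mean was 1.33 times that of controls. In control hippocampus, mice 11, 20, 31 and 37 had 1604, 1829, 2001 and 1875 CPM. GA-Camk2a hippocampus ranged from 1298 to 1688 CPM with a median of 1626, and 3 of its 6 libraries lay below every control. Here the groups overlapped, and the GA-Camk2a mean was 0.851 times that of controls.

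The log2 difference of Tmsb4x was 0.43 ± 0.09 (SE) in cortex and -0.28 ± 0.09 (SE) in hippocampus, where it was not past the threshold. The genotype effect in hippocampus minus that in cortex was -0.71 ± 0.12 (SE), past the threshold of the interaction test, as were 0.414% of all genes. In order of the mean, control hippocampus came first, then GA-Camk2a cortex, GA-Camk2a hippocampus and control cortex, and each group overlapped the next. With the mouse as a block the difference between the effects was -0.73 ± 0.13 (SE), past the threshold. Within mice, hippocampus was above cortex in 4 of 4 controls and in 2 of 6 GA-Camk2a mice. In batch 1 alone the cortex difference was 0.46 ± 0.13 (SE), and in batch 2 alone, with 2 libraries per genotype, it was 0.38 ± 0.12 (SE) and not past the threshold. In hippocampus the batches gave -0.29 ± 0.15 (SE) and -0.28 ± 0.13 (SE). The labels give no sex, and without mice 16, 31 and 35, whose Xist was above Ddx3y, the cortex difference was 0.42 ± 0.13 (SE), that in hippocampus -0.25 ± 0.11 (SE) and the difference between them -0.60 ± 0.15 (SE), none past the threshold. The hippocampus difference was past it without control mouse 11 or GA-Camk2a mouse 34, and also with DESeq2, with limma-voom, with no filter and in 1 fit over all libraries, so this call depends on the processing.

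**Figure D2:**
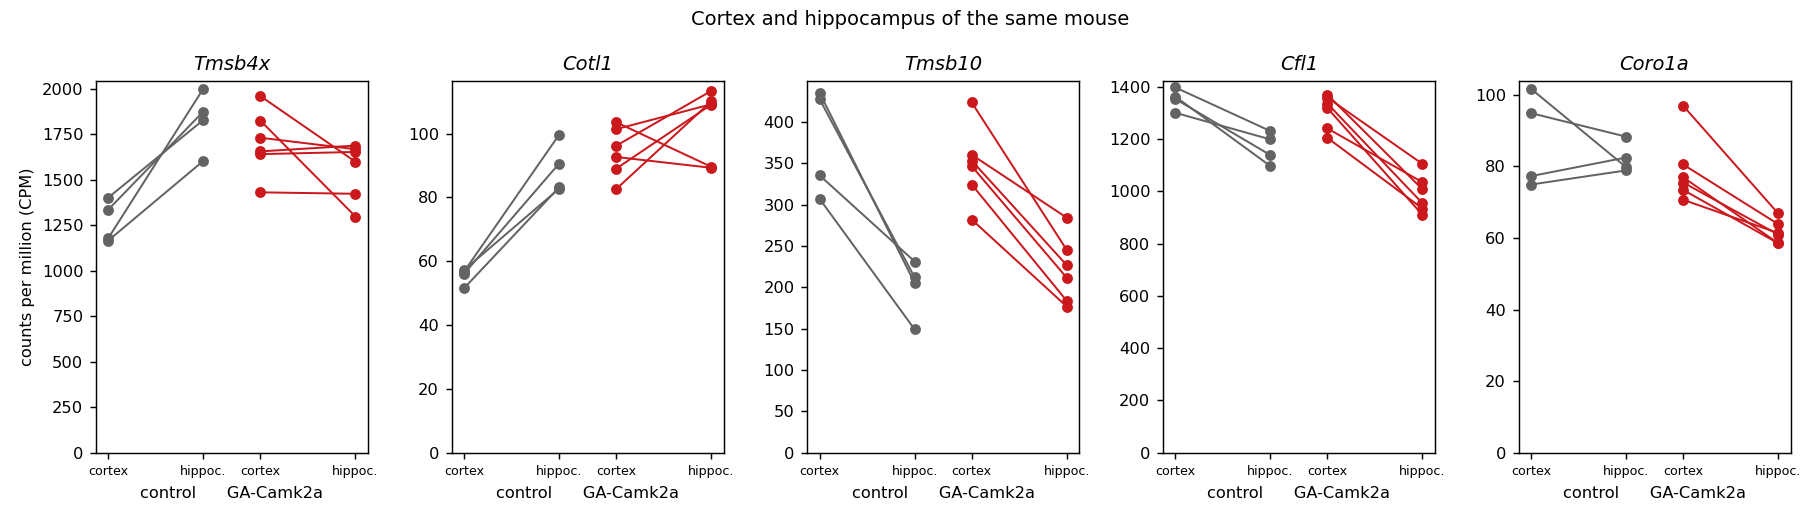
CPM of Tmsb4x, Cotl1, Tmsb10, Cfl1 and Coro1a in cortex and hippocampus of the same mouse, with a line per mouse for the 4 control and 6 GA-Camk2a mice that gave both tissues. The lines of Tmsb4x go up toward hippocampus in 4 of 4 control mice and in 2 of 6 GA-Camk2a mice, and those of Tmsb10 go down in all 10 mice.

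Tmsb10, the gene of thymosin beta 10, differed between the tissues, while its difference between the genotypes was past the threshold in neither tissue. It measured 307.2, 427.8, 335.6, 435.4 and 414.5 CPM in control cortex of mice 11, 20, 31, 37 and 38, and 149.1, 212, 231.3 and 205.2 CPM in control hippocampus of mice 11, 20, 31 and 37. These groups did not overlap, and the hippocampus mean was 0.519 times the cortex mean, a log2 difference of -1.03 ± 0.12 (SE). Of the 10 genes, 2 were past the threshold with higher levels in control hippocampus (Tmsb4x and Cotl1) and 2 with lower levels (Tmsb10 and Cfl1), beside 8.9% and 7.62% of all genes, or 16.5% in either direction. The control tissues did not overlap for 4 of the 10, and for 13.7% of all genes. Choroid plexus markers, 5 of 5 of which were higher in control hippocampus (median log2 difference 2.81), moved with this contrast, at summed levels of 1800 to 2730 CPM in control cortex and 2020 to 34100 CPM in control hippocampus, the lowest in mouse 31. Their part in it was not tested. GA-Camk2a libraries held 282.1 to 423.8 CPM of Tmsb10 in cortex, with a median of 350.0, and 176.8 to 284.3 CPM in hippocampus, with a median of 219.2. The genotypes overlapped in both tissues, with log2 differences of -0.11 ± 0.10 (SE) and 0.11 ± 0.13 (SE). Tmsb10 was lower in hippocampus in all 10 mice with both tissues. Gm9844 matched the last 300 bases of Tmsb10 at 99.667% identity and held 734 counts against 13947 for Tmsb10, so how reads were split between them is uncertain.

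Pfn1, the profilin that passes monomers to growing filament ends, overlapped between the genotypes in both tissues. It ranged from 38.98 to 54.58 CPM in control cortex and from 45.49 to 67.03 CPM in GA-Camk2a cortex, and from 47.29 to 69.99 and 52.78 to 64.16 CPM in the same groups of hippocampus. The log2 difference was 0.25 ± 0.12 (SE) in cortex and -0.05 ± 0.11 (SE) in hippocampus, and neither was past the threshold. The cortex value was 0.07 ± 0.15 (SE) in batch 1 and 0.60 ± 0.20 (SE) in batch 2, and in hippocampus the batches gave -0.25 ± 0.15 (SE) and 0.18 ± 0.15 (SE). Without mice 16, 31 and 35 the cortex value of Pfn1 was -0.02 ± 0.14 (SE).

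Cfl1, the cofilin gene of non-muscle cells, was lower in hippocampus than in cortex in all 10 mice with both tissues, and lower again in GA-Camk2a hippocampus. Control hippocampus held 1139, 1097, 1199 and 1231 CPM in mice 11, 20, 31 and 37. GA-Camk2a hippocampus ranged from 910 to 1105 CPM with a median of 981.2. All but 1 of the 6 GA-Camk2a libraries lay below every control, and the log2 difference was -0.28 ± 0.08 (SE). In cortex the groups overlapped at 1301 to 1489 CPM in controls and 1205 to 1370 CPM in GA-Camk2a mice, a log2 difference of -0.07 ± 0.08 (SE). The hippocampus value was -0.33 ± 0.12 (SE) in batch 1 and -0.24 ± 0.13 (SE) in batch 2. It was no longer past the threshold in either batch alone, with library totals only, after thinning, without mice 16, 31 and 35 together, or without GA-Camk2a mouse 16 or 23 or control mouse 31 or 37, and over all alternatives it lay between -0.35 and -0.24. Between the control tissues Cfl1 differed by -0.30 ± 0.10 (SE), past the threshold in 2 of 9 fits that left out 1 library, those without the cortex of control mouse 31 and without the hippocampus of control mouse 37. With the mouse as a block it was -0.27 ± 0.10 (SE) and not past the threshold. Snx32 overlaps Cfl1 by 2967 bases on the other strand and held 2709 counts against 60081, so how reads were split between them is uncertain.

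Actb, which encodes beta-actin itself, overlapped between all groups. It ranged from 2336 to 3854 CPM in control cortex, 2177 to 3582 CPM in GA-Camk2a cortex, 2839 to 3572 CPM in control hippocampus and 2628 to 3282 CPM in GA-Camk2a hippocampus. The log2 difference between the genotypes was -0.16 ± 0.13 (SE) in cortex and -0.16 ± 0.10 (SE) in hippocampus. Neither was past the threshold, which does not show that the levels were equal. In batches 1 and 2 it was -0.04 ± 0.15 and -0.38 ± 0.16 (SE) in cortex, and -0.21 ± 0.15 and -0.12 ± 0.15 (SE) in hippocampus. Without mice 16, 31 and 35 the cortex value of Actb was 0.10 ± 0.16 (SE). A transcript of Lrrc58 aligned with the last 300 bases of Actb at 97.02% identity, and Lrrc58 held 10433 counts against 153062 for Actb.

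**Figure D3:**
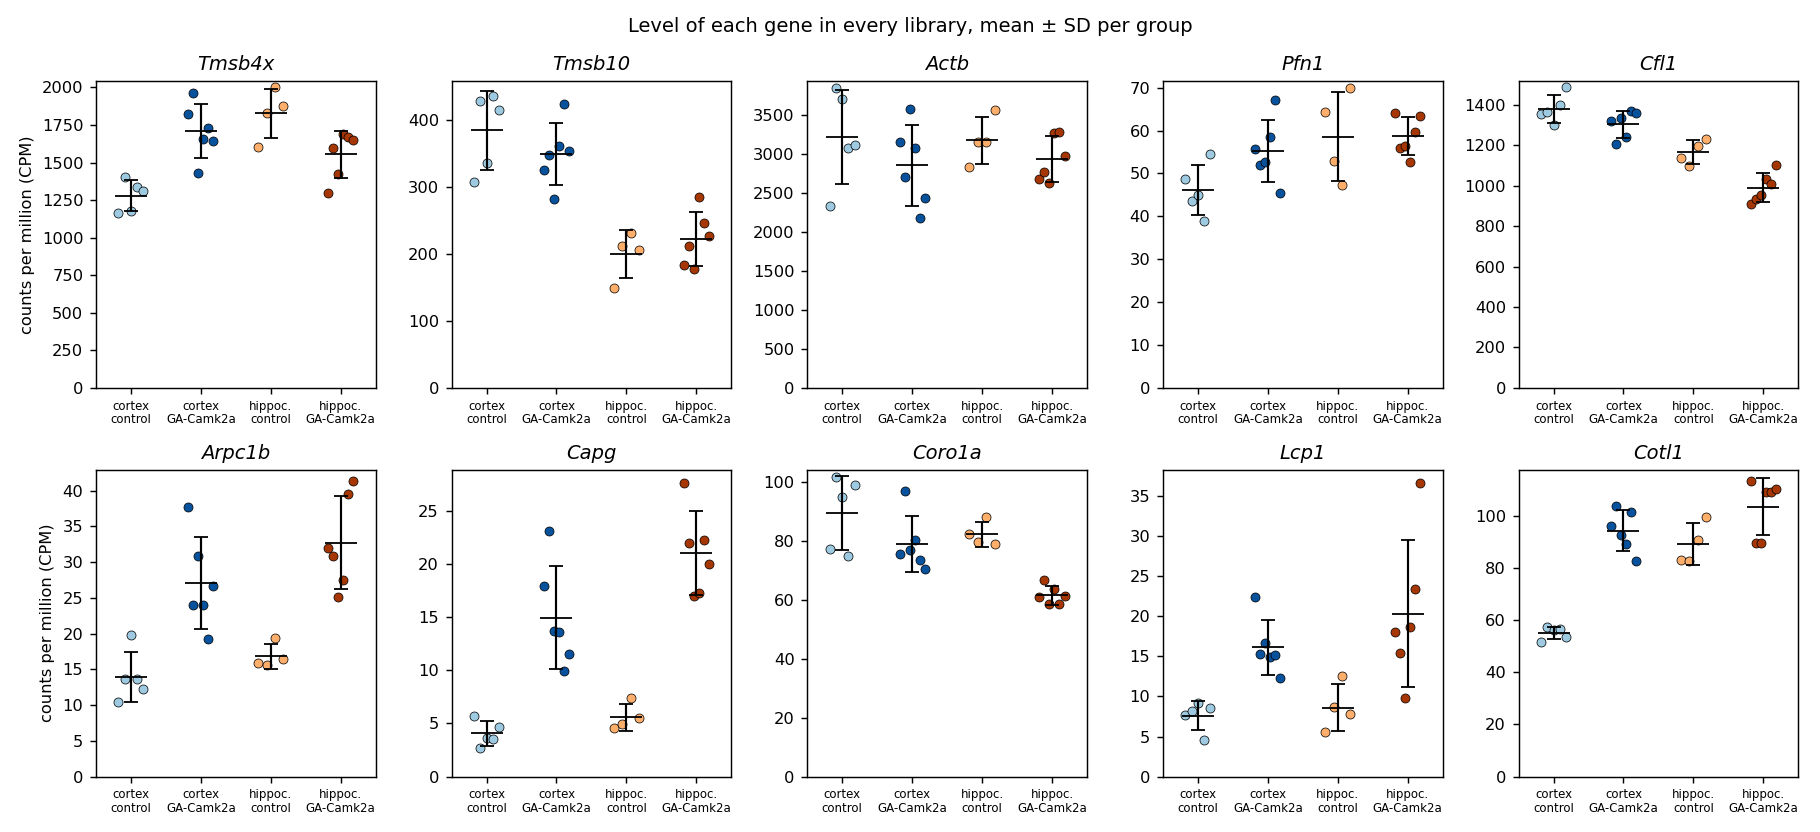
CPM of each of the 10 genes in each library of the 4 groups, with a point per library and a bar at the group mean with its SD. Capg, Lcp1 and Arpc1b have higher means in GA-Camk2a mice of both tissues, Cotl1 is lowest in control cortex at 51.52 to 57.22 CPM, and Actb overlaps in all groups.

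Arpc1b, a subunit of the Arp2/3 complex that is known for its use in blood cells, was close to 2 times as high in GA-Camk2a mice. In control cortex it measured 10.49, 13.62, 19.79, 13.67 and 12.19 CPM in mice 11, 20, 31, 37 and 38. GA-Camk2a cortex ranged from 19.24 to 37.75 CPM with a median of 25.31. Control mouse 31 lay just above the lowest GA-Camk2a library, that of mouse 35, and the other 5 were above every control. Control hippocampus held 15.91, 15.62, 19.37 and 16.41 CPM in mice 11, 20, 31 and 37, and GA-Camk2a hippocampus 25.09 to 41.36 CPM with a median of 31.38. The hippocampus groups did not overlap, as in 9.62% of all genes tested there. The ratio of the means was 1.94 in each tissue, and the log2 differences were 0.91 ± 0.18 (SE) in cortex and 0.92 ± 0.14 (SE) in hippocampus. Within batches 1 and 2 they were 0.87 ± 0.21 and 0.99 ± 0.34 (SE) in cortex and 0.76 ± 0.20 and 1.08 ± 0.20 (SE) in hippocampus, and the cortex value of batch 2 and the hippocampus value of batch 1 were not past the threshold. The end of Arpc1b overlaps 1937 bases of Pdap1 on the other strand, which held 4910 counts against 1116, and without the strand setting of the counting the reads of these genes cannot be told apart. After thinning, the cortex value of Arpc1b was 0.97 ± 0.33 (SE) and not past the threshold. Pdap1 itself differed by -0.02 ± 0.09 (SE) in cortex and -0.21 ± 0.18 (SE) in hippocampus.

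Capg, a gelsolin-related protein that caps filament ends and is abundant in macrophages, had the largest ratios of the 10 genes. Control cortex held 5.724, 2.725, 3.664, 3.544 and 4.71 CPM in mice 11, 20, 31, 37 and 38, from 3 to 17 counts per library. GA-Camk2a cortex ranged from 9.909 to 23.11 CPM with a median of 13.66. In control hippocampus mice 11, 20, 31 and 37 had 4.547, 4.925, 7.407 and 5.471 CPM, and GA-Camk2a hippocampus ranged from 17.02 to 27.65 CPM with a median of 21.02. The genotypes did not overlap in either tissue, and the means stood at 3.68 to 1 in cortex and 3.77 to 1 in hippocampus. The log2 differences were 1.86 ± 0.26 (SE) and 1.92 ± 0.21 (SE), and Capg was past the threshold in both tissues under every alternative that was fitted. Batches 1 and 2 gave 1.80 ± 0.31 and 2.01 ± 0.50 (SE) in cortex and 1.99 ± 0.32 and 1.85 ± 0.27 (SE) in hippocampus. The means followed the order GA-Camk2a hippocampus, GA-Camk2a cortex, control hippocampus and control cortex, and among neighbours in this order GA-Camk2a cortex and control hippocampus did not overlap.

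Lcp1 encodes L-plastin, the bundling protein of white blood cells. Control cortex measured 7.632, 8.175, 9.16, 4.557 and 8.589 CPM in mice 11, 20, 31, 37 and 38, and GA-Camk2a cortex 12.25 to 22.47 CPM with a median of 15.21. No library of one group reached the other, and the ratio of the means was 2.12. In control hippocampus Lcp1 stood at 5.521, 8.662, 12.54 and 7.751 CPM in mice 11, 20, 31 and 37. GA-Camk2a hippocampus ranged from 9.856 CPM in mouse 30 to 36.69 CPM in mouse 41, with a median of 18.35. Mouse 30 lay below control mouse 31 and the other 5 were above every control. The log2 difference was 1.02 ± 0.21 (SE) in cortex and 1.21 ± 0.25 (SE) in hippocampus. Mouse 41 is the hippocampus library rich in neutrophil markers, and without it the difference was 1.04 ± 0.24 (SE), still past the threshold. Batch 1 gave 0.78 ± 0.23 (SE) in cortex and 1.14 ± 0.34 (SE) in hippocampus, and batch 2 gave 1.61 ± 0.41 (SE) and 1.29 ± 0.32 (SE). The cortex value of batch 2 and the hippocampus value of batch 1 were not past the threshold. With counts thinned to the smallest library the differences were 0.98 ± 0.33 (SE) and 0.51 ± 0.30 (SE), and neither was past the threshold. Without mice 16, 31 and 35 the cortex difference was 0.81 ± 0.27 (SE), and the hippocampus difference was close to that with all mice, with its SE at 0.33. Neither was past the threshold.

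Microglia markers, which rose in GA-Camk2a mice, moved with these 3 genes. Of the 15 markers, 11 of 14 tested rose in cortex and 11 of 15 in hippocampus, with none lower and median log2 differences of 0.95 and 1.07. Of all genes, 6.35% rose in cortex and 4.97% in hippocampus, and these shares also stand beside the other marker lists that rose. Aif1, which encodes the microglia protein Iba1, rose by 0.91 ± 0.24 (SE, adjusted p = 0.0132 by edgeR) in cortex and 1.07 ± 0.21 (SE, adjusted p = 0.00405 by edgeR) in hippocampus. Csf1r, the receptor that microglia need to survive, rose by 0.88 ± 0.12 (SE, adjusted p = 3.1e-05 by edgeR) and 0.67 ± 0.12 (SE, adjusted p = 0.00182 by edgeR). Of 6 markers of homeostatic microglia, 4 rose in cortex and 2 in hippocampus, with none lower and medians of 0.68 and 0.55. P2ry12 and Tmem119 of this list were not past the threshold in either tissue, with log2 differences of 0.07 and -0.14 in cortex and -0.16 and 0.49 in hippocampus. Summed over the list, microglia markers reached 545 to 618 CPM in control cortex and 1420 to 2230 CPM in GA-Camk2a cortex, and 479 to 590 and 987 to 1570 CPM in hippocampus. None of the 15 was at 0 throughout a group.

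T cell markers, another white blood cell list, summed to 0.366 to 4.54 CPM in control cortex and 2.33 to 6.29 CPM in GA-Camk2a cortex, and to 1.19 to 2.85 and 3.29 to 6.03 CPM in hippocampus. Macrophage and monocyte markers ranged from 6.96 to 17.3 and 11.7 to 20.7 CPM in cortex and from 12 to 13.4 and 12.8 to 33.4 CPM in hippocampus. Genes of other lists rose as well. Astrocyte markers rose for 4 of 7 genes in cortex and 5 of 7 in hippocampus, and their sums went from 1670 to 2440 CPM in controls and 2430 to 3780 CPM in GA-Camk2a mice in cortex, and from 2140 to 2480 and 3520 to 4960 CPM in hippocampus. Mural cell markers rose for 2 of 4 genes tested in cortex and 2 of 5 in hippocampus, and blood markers for 3 of 4 in cortex and 0 of 4 in hippocampus (edgeR, all 4 at an unadjusted p under 0.05).

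Within the GA-Camk2a groups the microglia sum and the 3 genes did not always share their extremes. In cortex, mouse 16 had the highest microglia sum and the highest Arpc1b and Lcp1, but mouse 23 the highest Capg, and mouse 35 had the lowest sum and the lowest Arpc1b and Capg, but mouse 41 the lowest Lcp1. In hippocampus, mouse 30 had the lowest sum and the lowest Arpc1b, Capg and Lcp1, and mouse 16 had the highest sum and the highest Capg, but mouse 41 the highest Arpc1b and Lcp1. The part of any of these cell types in the levels of Capg, Lcp1 and Arpc1b was not tested. In bulk tissue, more cells of a type and more RNA per cell cannot be told apart.

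**Figure D4:**
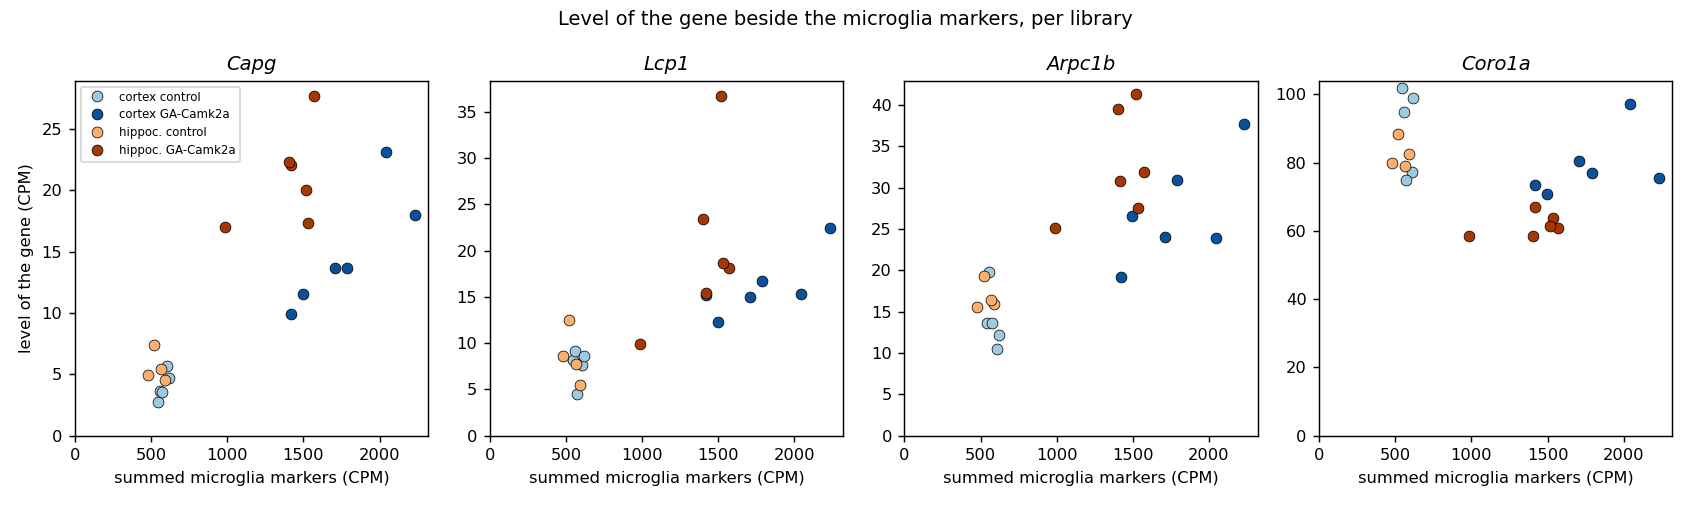
CPM of Capg, Lcp1, Arpc1b and Coro1a in each of the 21 libraries against the summed CPM of 15 microglia markers, with colour for tissue and genotype. GA-Camk2a libraries lie to the right, from 987 CPM of markers upward, and control libraries lie at 479 to 618 CPM. Capg, Lcp1 and Arpc1b are higher on the right and Coro1a is not.

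Coro1a, a coronin of white blood cells that neurons also express, went the other way from those 3 genes. Control hippocampus held 82.49, 79.82, 88.32 and 78.88 CPM in mice 11, 20, 31 and 37. GA-Camk2a hippocampus ranged from 58.52 to 66.85 CPM with a median of 61.17. The groups did not overlap, with a ratio of the means of 0.749 and a log2 difference of -0.46 ± 0.08 (SE). Control cortex held 77.28, 101.7, 94.9, 74.93 and 98.91 CPM in mice 11, 20, 31, 37 and 38, and GA-Camk2a cortex 70.68 to 96.99 CPM with a median of 76.25. The cortex groups overlapped, and the difference of -0.18 ± 0.11 (SE) was not past the threshold. The genotype effects of the tissues differed by -0.29 ± 0.13 (SE), which was not past the threshold of the interaction test. Batches 1 and 2 gave -0.44 ± 0.12 and -0.49 ± 0.13 (SE) in hippocampus, the first not past the threshold, and -0.16 ± 0.14 and -0.22 ± 0.19 (SE) in cortex. After thinning to the smallest library the hippocampus difference was -0.33 ± 0.17 (SE) and not past the threshold. Coro1a lay below cortex in hippocampus of all 6 GA-Camk2a mice and of 2 of 4 controls.

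Coro1a followed Cfl1 over the 21 libraries with r = 0.784. The genes most like Coro1a among 12916 compared were Tuba4a, an alpha-tubulin, at r = 0.92, Rbfox3, the gene of the neuronal antigen NeuN, at 0.903, and Pacsin1, an endocytosis protein of neurons, at 0.902. Excitatory neuron markers summed to 2050 to 2590 CPM in control hippocampus and 1080 to 1470 CPM in GA-Camk2a hippocampus, and to 1850 to 2350 and 1190 to 1650 CPM in cortex. Of the 6 genes of this list, 4 fell in cortex and 5 in hippocampus, beside 6.16% and 5.95% of all genes. The part of this list in Coro1a and Cfl1 was not tested.

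Cotl1, a coactosin-like protein that binds filaments, was higher in GA-Camk2a cortex. Control cortex held 51.52, 57.22, 56.06, 56.7 and 53.47 CPM in mice 11, 20, 31, 37 and 38. GA-Camk2a cortex ranged from 82.58 to 103.6 CPM with a median of 94.44. The groups did not overlap, with a ratio of the means of 1.71 and a log2 difference of 0.79 ± 0.10 (SE), which was 0.78 ± 0.13 (SE) in batch 1 and 0.80 ± 0.17 (SE) in batch 2. In control hippocampus mice 11, 20, 31 and 37 had 83.14, 82.71, 90.6 and 99.62 CPM, and GA-Camk2a hippocampus ranged from 89.3 to 113.4 CPM with a median of 109.2. These groups overlapped, and the log2 difference of 0.18 ± 0.10 (SE) was not past the threshold, with 0.14 ± 0.16 (SE) and 0.20 ± 0.14 (SE) in the batches. Control hippocampus was above control cortex without overlap by 0.65 ± 0.11 (SE), and this value was 0.32 ± 0.22 (SE) and not past the threshold after thinning. In order of the mean, GA-Camk2a hippocampus, GA-Camk2a cortex and control hippocampus each overlapped the next, and control cortex lay below them without overlap.

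The genotype effect of Cotl1 in hippocampus minus that in cortex was -0.61 ± 0.13 (SE), past the threshold of the interaction test. It ranged from -0.67 to -0.52 over all alternatives. It was not past the threshold in 11 of the 21 fits that left out 1 library, namely the cortex of mice 23, 31, 35, 37 and 38 and the hippocampus of mice 23, 30, 31, 34, 37 and 41. With the mouse as a block it was -0.60 ± 0.14 (SE) and not past the threshold. Microglia markers, given above, separated the genotypes in both tissues, and their part in the levels of Cotl1 was not tested. Over the 21 libraries Cotl1 followed Capg with r = 0.726 and Tmsb4x with r = 0.603.

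By the same measure, the genes most like Tmsb4x were Ramp2, a receptor accessory protein of vessels, at r = 0.729, Mt3, a metallothionein of brain, at 0.71, and Tmem204 at 0.689. Those most like Tmsb10 were ENSMUSG00000119968 at 0.972, Stmn1, the microtubule regulator stathmin, at 0.944, and Gm9844 at 0.935. Those most like Actb were Lrrc58 at 0.928, Iqsec1, an exchange factor for ARF proteins, at 0.872, and Lrrc8c, a subunit of volume-regulated anion channels, at 0.864. Gm9844 and Lrrc58 are the genes that share 3′ sequence with Tmsb10 and Actb. Tmsb4x and Tmsb10 did not follow each other, at r = -0.003.

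The other subunits of the Arp2/3 complex were not higher with Arpc1b. Of 7 further subunit genes, 4 fell in hippocampus and none rose, and none was past the threshold in cortex, with median log2 differences of -0.41 and -0.02. Of all genes, 5.95% fell in hippocampus. Arpc3 fell by 0.61 ± 0.14 on the log2 scale (SE, adjusted p = 0.0113 by edgeR), Arpc2 fell by 0.42 ± 0.08 (SE, adjusted p = 0.00219 by edgeR), Actr2 fell by 0.42 ± 0.08 (SE, adjusted p = 0.00441 by edgeR) and Arpc5 fell by 0.41 ± 0.08 (SE, adjusted p = 0.00476 by edgeR). In hippocampus these 4 did not overlap between the genotypes, as in 9.62% of all genes tested there. They were named for passing the threshold in these libraries, so the missing overlap adds no support. Arpc1a, the paralog that takes the place of Arpc1b in the complex, fell by 0.28 ± 0.08 in hippocampus (SE, adjusted p = 0.0305 by edgeR) and differed by -0.16 ± 0.09 in cortex (SE, adjusted p = 0.269 by edgeR). In hippocampus Arpc3 was not past the threshold without control 31 or 37, nor was Arpc1a without control 11, 20 or 31 or GA-Camk2a mouse 23, 30 or 41.

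Arpc5 was the listed actin gene outside the 10 whose genotype effect differed between the tissues. It ranged from 77.2 to 116.4 CPM in control cortex, 109.9 to 135.4 CPM in GA-Camk2a cortex, 158.5 to 191.7 CPM in control hippocampus and 119.7 to 154.8 CPM in GA-Camk2a hippocampus. The effect in hippocampus minus that in cortex was -0.68 ± 0.13 (SE, adjusted p = 0.0151 by edgeR), and it was not past the threshold without the cortex or the hippocampus of control mouse 31, over a range of -0.89 to -0.57 in all alternatives.

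**Figure D5:**
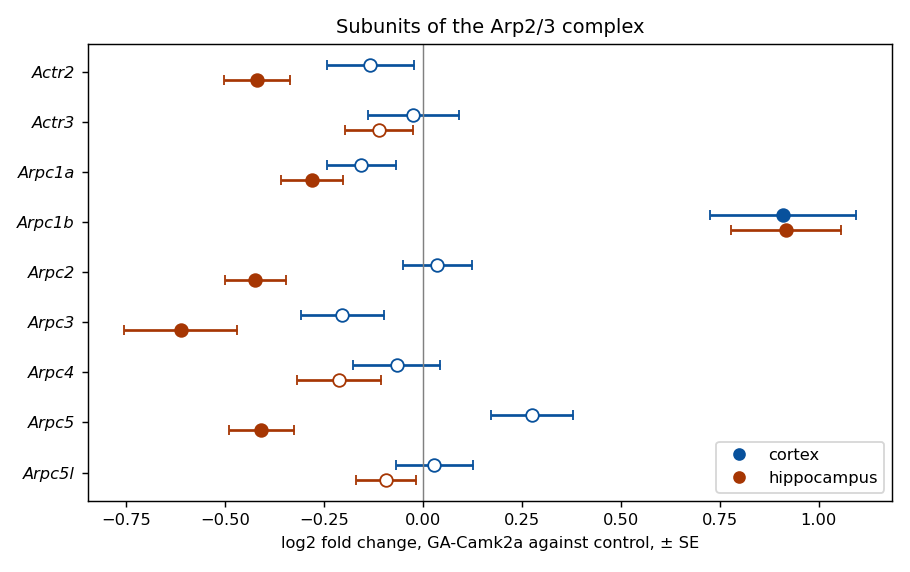
Log2 difference between GA-Camk2a and control mice of Arpc1b, its paralog Arpc1a and 7 other Arp2/3 subunit genes in cortex and hippocampus, with bars of 1 standard error, filled where past the threshold and open where not. In hippocampus Arpc1b lies at 0.92, while Arpc3, Arpc2, Actr2, Arpc5 and Arpc1a lie between -0.61 and -0.28.

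Of the 16 listed paralogs, Gsn, the capping and severing protein gelsolin related to Capg, rose in both tissues. It rose by 0.67 ± 0.13 in cortex (SE, adjusted p = 0.00118 by edgeR) and by 0.95 ± 0.13 in hippocampus (SE, adjusted p = 0.000243 by edgeR). In hippocampus Pfn2, the profilin of neurons, fell by 0.32 ± 0.08 (SE, adjusted p = 0.0135 by edgeR), Pls3, a plastin related to Lcp1, fell by 0.27 ± 0.08 (SE, adjusted p = 0.0366 by edgeR), and Cfl2, the second cofilin, rose by 0.27 ± 0.08 (SE, adjusted p = 0.042 by edgeR). These 3 were not past the threshold in cortex. In hippocampus Cfl2 was past it in 1 of 10 fits that left out 1 library, that without GA-Camk2a mouse 23. Pls3 was not past it without control 11, 20 or 31 or GA-Camk2a mouse 16, 23 or 35. With DESeq2 neither Cfl2 nor Pls3 was past it. Of 11 alternatives other than leaving out 1 library, 4 kept the call of Cfl2 and 2 that of Pls3. Actg1, the other cytoplasmic actin, Dstn, Coro1b, Coro1c, Pls1 and Dbnl were past it in neither tissue, at log2 differences of -0.04 to 0.45 in cortex and -0.13 to 0.37 in hippocampus. Tmsb15b1 was tested in hippocampus only, at 0.18 ± 0.30 (SE), Tmsb15b2, Tmsb15l and Scin did not pass the filter on low counts, and Tmsb15a was not analysed here.

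Over all 116 other actin genes listed, 12 rose and 17 fell of 103 tested in cortex, and 17 rose and 25 fell of 110 tested in hippocampus, with medians of -0.02 and -0.06. Of all genes, 6.35% rose and 6.16% fell in cortex, and 4.97% rose and 5.95% fell in hippocampus. The same shares stand beside the counts of each actin list below. Actin-binding proteins of dendritic spines had 1 higher and 6 lower of 10 in cortex and 1 higher and 7 lower of 10 in hippocampus. The medians of this list were -0.37 and -0.38. Ppp1r9b, the spine scaffold spinophilin, fell by 0.54 ± 0.11 (SE, adjusted p = 0.00213 by edgeR) and 0.81 ± 0.09 (SE, adjusted p = 4.8e-05 by edgeR). Its paralog Ppp1r9a, neurabin, fell by 0.84 ± 0.13 and 0.44 ± 0.12, and Synpo, the spine apparatus protein synaptopodin, fell by 0.51 ± 0.13 and 0.75 ± 0.13 (SE). Without control 31, Synpo in cortex and Ppp1r9a in hippocampus were not past the threshold. The same held for Ppp1r9a without control 11 or 20. Excitatory neuron markers, given above, were also lower in both tissues.

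Among the factors that switch on the Arp2/3 complex, 1 rose and 4 fell of 13 tested in cortex, and 2 rose and 6 fell of 14 in hippocampus. Wasf1, the WAVE protein of neurons, fell by 0.57 ± 0.09 (SE, adjusted p = 0.000221 by edgeR) in cortex and 0.94 ± 0.09 (SE, adjusted p = 2.63e-05 by edgeR) in hippocampus, and its partner Nckap1 fell by 0.49 ± 0.10 and 0.45 ± 0.08 (SE). Nckap1l, the form of Nckap1 in blood cells, rose by 1.16 ± 0.30 (SE, adjusted p = 0.0128 by edgeR) and 1.33 ± 0.28 (SE, adjusted p = 0.00576 by edgeR). Wasf2, the widely expressed WAVE protein, rose by 0.57 ± 0.13 in hippocampus (SE, adjusted p = 0.0129 by edgeR), but was not past the threshold without control 11 or 20.

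Membrane linkers had 2 of 3 higher in each tissue, Msn (moesin) by 0.69 and 0.94, Ezr (ezrin) by 0.59 in cortex and Rdx (radixin) by 0.32 in hippocampus. Of the tropomyosins and myosins, 2 rose and 1 fell of 10 in cortex and 3 rose and 1 fell of 11 in hippocampus. Here the myosin light chains Myl9 and Myl12a were higher in cortex, by 0.81 and 0.56, and in hippocampus, by 1.00 and 0.55, Myo1f rose by 1.42 in hippocampus, and Myh10 fell by 0.51 in cortex. Bundling and crosslinking proteins had 1 higher and 2 lower of 8 in cortex and 2 higher of 8 in hippocampus, among them Tagln2 (1.18 in cortex), Actn1 (-0.70 in cortex), Flna (0.74 in hippocampus) and Iqgap1 (0.57 in hippocampus). Each of these values is a log2 difference past the threshold with edgeR. Single libraries decided several of these calls. In cortex these were Msn without control 31 or 37, Ezr without control 11 or GA-Camk2a mouse 16 or 23, and Actn1 and Myh10 without control 31. In hippocampus they were Myl12a without control 31 and Myo1f without control 20. Rdx was past the threshold in hippocampus only without control 37 or GA-Camk2a mouse 34, of 10 such fits, and Iqgap1 only without control 20 or GA-Camk2a mouse 34 or 41.

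Of 5 other monomer-binding or turnover genes only Cap2, a cyclase-associated protein, passed the threshold, and fell by 0.40 in cortex and 0.48 in hippocampus on the log2 scale. Of the formins, which elongate unbranched filaments, Fmnl1 fell by 0.59 and 0.70. Flii rose by 0.36 and Capza2 fell by 0.34 in hippocampus among 9 capping and severing genes, and Mrtfb, an actin-sensing cofactor of serum response factor, fell by 0.53 in cortex. Flii was past the threshold in 1 of 10 fits that left out 1 library, that without GA-Camk2a mouse 23, and it was not past it with DESeq2. Cap2 was not past it in hippocampus without control 11, and Fmnl1 was past it in cortex only without control 11 or 37 or GA-Camk2a mouse 30 or 34. None of the 3 other coronins was past the threshold in either tissue.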

How the data were processed

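The table deposited for 21 prime-seq libraries holds raw counts, in whole numbers. The authors demultiplexed and counted with zUMIs on GRCm39 with a GFP sequence added, and the submitters' processing notes name FastQC 0.11.8, cutadapt 1.12, STAR and DESeq2 1.44. Whether UMIs or reads were counted, the annotation release, introns and strand are not given in the sources used here. Counts on overlapping genes are therefore uncertain.

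The GFP row (3.38e-05% of counts) stayed out of every total, and 0 columns of counts went unused. Symbols came from a GENCODE table of GRCm38 matched on Ensembl number, for 43308 rows with 96.1% of counts. Groups, mice and batches came from the labels. The members, lists and tests were chosen with earlier results of these data known. Named were the 10 members, all listed paralogs, up to 4 genes past the threshold per other actin list by size of change, 4 microglia markers, and the 3 genes most like each of 4 members. A few results that this rule would name are not reported here.

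Tests used edgeR 4.0.16 in R 4.3.3 with TMM, filterByExpr (minimum count 10), quasi-likelihood F-tests, batch as a covariate and Benjamini-Hochberg adjustment over all genes tested, with a threshold of 0.05. Each SE was derived as the absolute log2 difference divided by the square root of its F statistic. The study's methods name DESeq2 with no covariate. The genotype effects of the tissues were compared by an interaction over 21 libraries. This fit and that between control tissues had no mouse block, so libraries of the same mouse entered as independent. Totals of 1048201 to 5888102 counts limit the precision of low genes. The 46 pairs of libraries within groups differed by 2.1 to 15.1 in chi-square per degree of freedom, so each counted as 1 replicate. The same number in both tissues is the same mouse, so numbers pair the tissues. Same-mouse deviations correlated at 0.14 to 0.29 where both libraries shared a batch and at -0.23 to -0.0658 where they did not. Scripts were tested on simulated data. Alternatives were DESeq2 1.42.0, limma 3.58.1 with voom, other scalings and filters, thinning, single batches, a mouse block and leaving out each library.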

Additional observations from a re-analysis of the deposited data

Results flagged for a closer look

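In the interaction test over all 21 libraries, the genotype effect (GA-Camk2a minus control, log2) of 3 genes of this set differed between hippocampus and cortex. For Tmsb4x the effect in hippocampus minus that in cortex was -0.71, for Arpc5 it was -0.68 and for Cotl1 it was -0.61. Without mice 16, 31 and 35 none of the 3 was past the threshold, and 0 of all genes were (930 genes at an unadjusted p under 0.05, edgeR). Arpc5 was also not past it without the cortex or the hippocampus of control mouse 31. Cotl1 was not past it with the mouse as a block, after thinning, with library totals only, with no filter, or in 11 of 21 fits that left out 1 library. Tmsb4x and Cotl1 were chosen with their levels known, so their values are a description. The control hippocampus and control cortex libraries enter each of these differences, and control hippocampus was above control cortex for all 3 genes. In 40 groups of libraries, 1 for each of the 10 genes in each of the 4 groups, 0 had a library set apart by Dixon's test, where chance gives about 1 in 20.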

How the results depend on the processing

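Of 898 values of the 10 genes under alternatives, 879 moved by less than 1 SD, 19 moved by more and 0 of those past the threshold changed sign. Of 1800 values of other named genes, 211 lost the threshold and 17 gained it. Another 8 stayed short of it but moved by at least 1 SD. The other 1564 also kept their side, and 0 of those past the threshold changed sign. In cortex, the 5 of the 10 genes past the threshold became 3 after thinning to the smallest library, 2 in batch 2 alone and 3 without mice 16, 31 and 35, whose Xist was above Ddx3y (an alternative chosen after seeing the data). The 29 other actin genes past it became 16 after thinning, 16 in batch 1, 5 in batch 2 and 7 without those mice, and the 1634 of all genes became 691, 879, 230 and 399. In hippocampus, 5 of the 10 became 2 after thinning, 1 in batch 1 and 3 without those mice. There the 42 other actin genes became 19 after thinning, 2 in batch 1, 20 in batch 2 and 12 without those mice, and the 1625 of all genes became 748, 115, 681 and 522. Between control tissues, 4 of the 10 became 2 and 2385 of all genes became 598 after thinning. For the interaction, 2 of the 10 became 1 with library totals only, with no filter, after thinning and with the mouse as a replicate block, and 0 without those mice (2 at an unadjusted p under 0.05, edgeR). Of all genes, 61 became 127 with DESeq2, 33 with no batch term, 159 with no filter, 6 after thinning and 0 without those mice (930 at an unadjusted p under 0.05, edgeR). The block left 66 of all genes in the interaction, and 3 of the 10 and 1980 of all genes between control tissues. Thinned, single-batch and reduced fits hold fewer counts or libraries; beyond that the cause was not tested.

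Leaving out 1 library at a time gave, for the 10 genes, 5 to 5 past the threshold in cortex, 4 to 6 in hippocampus, 3 to 4 between control tissues and 1 to 2 in the interaction. For the other actin genes it gave 22 to 30 in cortex and 25 to 45 in hippocampus. For all genes it gave 1040 to 1526 in cortex, 1038 to 1830 in hippocampus, 1580 to 3170 between control tissues and 22 to 66 in the interaction, with the lowest counts without control mouse 31 in cortex, in hippocampus and (its hippocampus library) in the interaction, and without the cortex of control mouse 38 between control tissues. With library totals only, the share of higher genes among those past the threshold was 57.4% in place of 45.5% in hippocampus and 61.2% in place of 39.3% in the interaction. Low depth touches Capg, with 3 to 17 counts per control cortex library, and after thinning Lcp1 lost its calls in both tissues and Arpc1b that in cortex, while Capg kept both.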
